A study of Mus musculus with 2 samples.

Results

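Colony-stimulating factors are the cytokines that keep myeloid cells alive, dividing and differentiating, and the genes described here are 8 members of that system: the ligands Csf1 and Csf2 and the receptor genes Csf1r, Kit, Csf2ra, Csf2rb, Csf2rb2 and Csf3r. They were chosen by symbol, and all 8 were found among the 30538 genes of the count table. RNA sequencing was performed on mouse splenic cells sorted as CD11b-positive, Ly6G-negative and Ly6C-low, which the labels call resident splenic macrophages. The cells came from mice without the 25-hydroxycholesterol-producing enzyme (Ch25h-/-) and from C57BL/6 mice, all taken 3 days after intravenous infection with 100000 Listeria monocytogenes. Each genotype has 1 library of about 100000 sorted cells, with no uninfected group, and the sources used here do not give how many mice, or of what age, went into each library.

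CSF1 (M-CSF) acts through the receptor tyrosine kinase CSF1R and sustains monocytes and tissue macrophages, including those of the spleen. KIT, the receptor for stem cell factor, belongs to the same class of kinases and is used by progenitors and mast cells. CSF2 (GM-CSF), made largely by activated lymphocytes, binds a receptor built from the specific alpha chain CSF2RA and the common beta chain CSF2RB, which signals through JAK2 and STAT5. Mice carry an additional beta chain gene, Csf2rb2, whose product serves the IL-3 receptor. CSF3R, the receptor for CSF3 (G-CSF), is used by neutrophils and their precursors and also by some monocytes.

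Receptor transcripts were lower in the Ch25h-/- library by unequal amounts. Csf2rb stood at 50.7% of its C57BL/6 level, Csf2rb2 at 58.4%, Kit at 65.8%, Csf2ra at 70.9%, Csf1r at 73.8% and Csf3r at 93.5%. Of the ligands, Csf1 stood at 73.1%, while Csf2 was at 135% of a low level with an interval that included no difference. No member differed by 2-fold.

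The Ch25h-/- library held 15986392 gene counts and the C57BL/6 library 16957371. Counts were scaled with TMM factors to CPM, a unit of counts relative to library size, and a gene was measured when it averaged at least 1 CPM over both libraries, which all 8 members and 11972 genes in all did. The design holds no replicates, so no test was run. Each log2 ratio, Ch25h-/- over C57BL/6, carries an exact 95% interval that covers counting error alone, without differences between mice, sorts or preparations. By the rule of at least 2-fold with an interval clear of 0, 0 of the 8 members were lower and 0 were higher, against 5.77% and 2.07% of all measured genes. The gate genes were present, with Itgam (CD11b) at 877 CPM in the Ch25h-/- library and 706 CPM in the C57BL/6 library. Ly6g had 41 counts in the Ch25h-/- library and 8 in the C57BL/6 library, and Ly6c2 had 173 and 103 CPM. Ch25h had 0 counts in the Ch25h-/- library and 3 in the C57BL/6 library, too few to check the labels. In bulk RNA from sorted cells, fewer cells of a type and less RNA per cell cannot be told apart.

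The 2 beta chain genes are printed first because their likeness bears on how their counts are read. Csf2rb (ENSMUSG00000071713, plus strand) lies on GRCm38 chromosome 15 from 78325752 to 78353847, and Csf2rb2 (ENSMUSG00000071714, minus strand) lies 20030 bases away at 78282507 to 78305721. Over 2628 aligned coding bases, the main GENCODE M21 transcripts of the 2 genes were 95.2% identical, with a longest identical stretch of 242 bases. The most different 60-base stretch within a single exon, with the 13 differing bases in capitals, falls in coding exon sequence (exon 4 of both) at chr15:78338893-78338952 in Csf2rb and chr15:78294379-78294438 in Csf2rb2:
Csf2rb: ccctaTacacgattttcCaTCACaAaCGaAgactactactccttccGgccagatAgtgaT
Csf2rb2: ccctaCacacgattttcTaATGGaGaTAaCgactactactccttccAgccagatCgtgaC
Of all 75-base stretches of the Csf2rb coding sequence, 15.8% also occur letter for letter in the Csf2rb2 transcript, and of 50-base stretches 26.2%. The remaining stretches hold at least 1 base that tells the genes apart. The read length and the handling of reads with several matches are not given in the sources used here.

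Promoter windows from RefSeq (GRCm38.p6, 250 bases before to 50 after the annotated start) were available for Csf1, Csf2, Csf2ra, Csf2rb2, Csf3r and Kit. They are shown for Csf1, Csf2ra and Csf2rb2, members that were lower in the Ch25h-/- library and whose RefSeq start lies within 11 bases of the GENCODE gene start. In Csf2ra and Csf2rb2 the capitals mark GAGGAA, the core bound by the myeloid factor PU.1, on either strand. In Csf1 they mark GGGNNNTTCC, letters shared by many NF-kB sites, here on the opposite strand. The windows are chr3:107760420-107760719 (minus strand), chr19:61228369-61228668 (minus strand) and chr15:78305672-78305971 (minus strand):
Csf1: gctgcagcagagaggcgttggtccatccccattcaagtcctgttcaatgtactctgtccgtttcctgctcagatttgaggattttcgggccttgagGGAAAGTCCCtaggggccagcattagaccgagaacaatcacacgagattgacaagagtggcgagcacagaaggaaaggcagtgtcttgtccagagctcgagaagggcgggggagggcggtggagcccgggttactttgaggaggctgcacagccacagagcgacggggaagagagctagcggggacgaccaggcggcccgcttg
Csf2ra: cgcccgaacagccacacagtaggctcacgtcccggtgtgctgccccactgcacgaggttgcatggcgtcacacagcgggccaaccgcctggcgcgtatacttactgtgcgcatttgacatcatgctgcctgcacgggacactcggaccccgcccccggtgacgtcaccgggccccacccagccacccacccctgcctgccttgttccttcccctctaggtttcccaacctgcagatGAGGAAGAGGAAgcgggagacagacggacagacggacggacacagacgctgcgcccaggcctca
Csf2rb2: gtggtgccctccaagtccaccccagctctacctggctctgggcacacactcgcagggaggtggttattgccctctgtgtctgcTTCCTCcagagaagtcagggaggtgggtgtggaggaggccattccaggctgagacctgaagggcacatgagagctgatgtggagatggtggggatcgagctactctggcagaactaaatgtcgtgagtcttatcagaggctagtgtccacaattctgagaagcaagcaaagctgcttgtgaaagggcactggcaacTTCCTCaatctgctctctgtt
GAGGAA was found in the windows of Csf2ra and Csf2rb2, with 2 matches each, and of Csf3r and Kit, with 1 each, and in 28.3% of all 32851 promoter windows. Csf1 and Csf3r held GGGNNNTTCC once each, as did 5.56% of all windows at least once. This motif was chosen after the Csf1 window had been read. The STAT motif TTCNNNGAA occurred once, in Csf2rb2, and in 8.30% of all windows. The 3 motifs do not overlap in these windows. A match describes letters only, and nothing here measures binding.

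**Figure D1:**
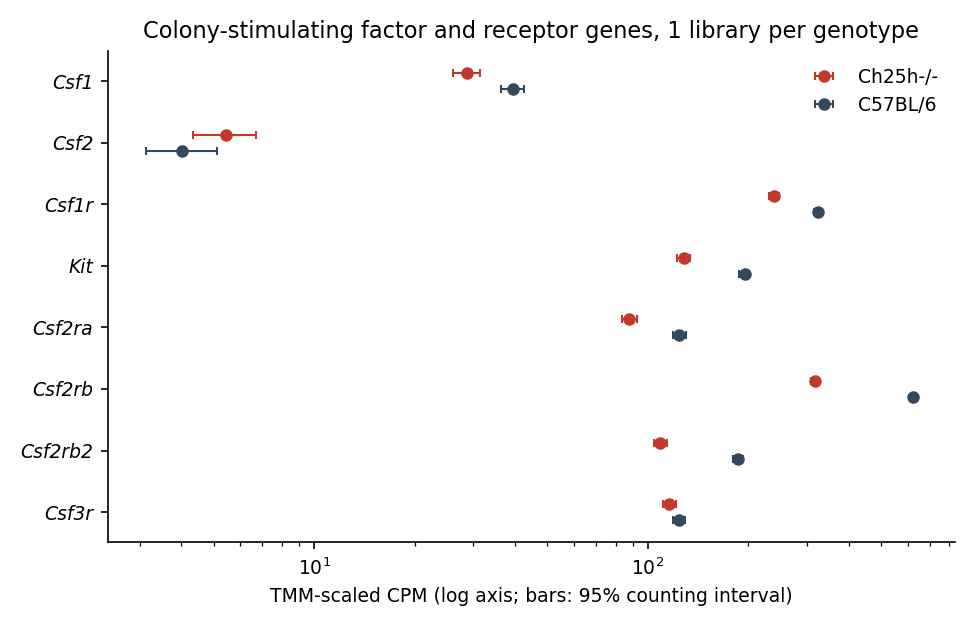
TMM-scaled CPM (log axis) of the 8 members in the Ch25h-/- library (red, upper point) and the C57BL/6 library (blue, lower point), with 95% counting intervals. Csf2rb is furthest apart, at 317 and 625 CPM, Csf3r nearly coincides at 116 and 124 CPM, and Csf2 is the only member with the red point on the right.

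The ligands were the least abundant members. Csf1 (ENSMUSG00000014599, chromosome 3, 107741048 to 107760469, minus strand) had 455 counts in the Ch25h-/- library and 672 in the C57BL/6 library. This is 28.7 CPM (interval 26.1 to 31.5) in Ch25h-/- and 39.3 CPM (36.4 to 42.4) in C57BL/6, a log2 ratio of -0.45 (-0.63 to -0.28). The CPM intervals of the 2 libraries did not overlap. Csf2 (ENSMUSG00000018916, chromosome 11, 54247271 to 54249667, minus strand) had 86 counts in the Ch25h-/- library and 69 in the C57BL/6 library. Its levels of 5.43 CPM (4.34 to 6.70) in Ch25h-/- and 4.03 CPM (3.14 to 5.10) in C57BL/6 overlapped within counting error. The log2 ratio of 0.43 (-0.04 to 0.91) left both no difference and a rise of nearly 2-fold within its interval. An annotated antisense gene, Gm12223, shares 96 of the 800 exon bases of Csf2, and whether counting used strand is not known.

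Other ligands of these receptors were scarce. Csf3, encoding G-CSF, had 14 counts in the Ch25h-/- library and 46 in the C57BL/6 library, a log2 ratio of -1.61 (-2.58 to -0.72), which passed the 2-fold rule at 0.884 and 2.69 CPM. Csf3 reached the 1 CPM mean only through C57BL/6, so it had to differ and that call is a description. Kitl, encoding the KIT ligand stem cell factor, had 3 and 6 counts. Il34, which encodes the alternative CSF1R ligand, and Il3, whose receptor uses both beta chains, had 0 counts in both libraries, and Il5 had 0 in Ch25h-/- and 4 in C57BL/6. A count of 0 allows up to 3 counts, equal to 0.189 CPM in the Ch25h-/- library and 0.175 CPM in the C57BL/6 library.

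Csf1r, the macrophage growth factor receptor gene (ENSMUSG00000024621, chromosome 18, 61100598 to 61132149, plus strand), had 3786 counts in the Ch25h-/- library and 5542 in the C57BL/6 library. This is 239 CPM (231 to 247) in Ch25h-/- and 324 CPM (315 to 333) in C57BL/6, a log2 ratio of -0.44 (-0.50 to -0.38). The gene on the opposite strand, Hmgxb3, overlaps 15.1% of the annotated exon bases of Csf1r, and it stood at 56.4 CPM in Ch25h-/- and 70.0 CPM in C57BL/6. Macrophage markers were lower in the same library. Of 15 red pulp and tissue macrophage markers, 13 had a ratio below 0, against 48.2% of all measured genes. By the 2-fold rule 5 were lower, against 5.77%. The list had a median of -0.73 and a summed level of 493 CPM in Ch25h-/- and 766 CPM in C57BL/6. The mannose receptor gene Mrc1 had 4.36 CPM in Ch25h-/- and 25.4 CPM in C57BL/6, the transferrin gene Trf 1.14 and 4.73 CPM, and Sirpa, the most abundant of these markers, 182 and 298 CPM. The 11 Ly6C-low monocyte markers, a list that shares the Ly6C-low name of the gate, had a median of -0.39. An interval below 0 was found for 8 and above 0 for 3, against 27.5% and 31.0% of all measured genes. Their summed level was nevertheless higher in Ch25h-/- (3210 CPM) than in C57BL/6 (2788 CPM). The integrin gene Itgal (1784 and 1341 CPM) and Spn (676 and 471 CPM) made up most of that sum. It therefore does not stand for the list as a whole. The Fc receptor gene Fcgr4 was at 69.7 and 153 CPM. All of these markers had counts in both libraries. The part these markers have in the Csf1r ratio was not tested. Per kilobase of exon, Csf1r exceeded its ligand gene Csf1 7.61-fold in the Ch25h-/- library and 7.54-fold in the C57BL/6 library, and the ratios of receptor and ligand differed by less than counting error.

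Kit (ENSMUSG00000005672, chromosome 5, 75574916 to 75656722, plus strand) had 2028 counts in the Ch25h-/- library and 3331 in the C57BL/6 library. It stood at 128 CPM (122 to 134) in Ch25h-/- and 195 CPM (188 to 201) in C57BL/6, a log2 ratio of -0.60 (-0.69 to -0.52). Markers of the cells best known for KIT did not move as a block. Of 9 measured basophil and mast cell markers, 4 were below 0 and the median was 0.11. Within them the histidine decarboxylase gene Hdc, the most abundant, had 108 CPM in Ch25h-/- and 209 CPM in C57BL/6 (log2 ratio -0.95), and the mast cell chymase gene Cma1 had 15.0 and 7.07 CPM (1.08). The connective tissue mast cell genes Mcpt4 and Tpsb2 were nearly absent, with 6 and 2 counts in Ch25h-/- and 1 and 0 in C57BL/6. Of 6 measured progenitor markers, 5 were below 0, against 48.2% of all measured genes, and the median was -0.45. Flt3, encoding the dendritic cell and progenitor kinase related to KIT, was lowest at 43.5 CPM in Ch25h-/- and 134 CPM in C57BL/6 (-1.62), and Myb, the most abundant, was level at 198 and 202 CPM. Erg was on the other side at 3.03 and 1.81 CPM (0.74). Outside these 6, Mecom had 9 counts in Ch25h-/- and 2 in C57BL/6, Hoxa9 15 and 10, Gata1 16 and 12, and Hlf 3 and 12. With no filter beyond 1 count, the progenitor median was -0.24. The part of these cells in the Kit ratio was not tested. The summed levels were 202 CPM in Ch25h-/- and 296 CPM in C57BL/6 for the 11 basophil and mast cell markers, and 262 and 360 CPM for the 10 progenitor markers. Hdc alone differed by more than the first sum, and Flt3 held most of the difference of the second. Neither sum therefore stands for its list as a whole.

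The GM-CSF receptor chains differed from each other. Csf2ra, the alpha chain gene (ENSMUSG00000059326, chromosome 19, 61223957 to 61228429, minus strand), had 1394 counts in the Ch25h-/- library and 2125 in the C57BL/6 library. That is 88.0 CPM (83.4 to 92.7) in Ch25h-/- and 124 CPM (119 to 130) in C57BL/6, a log2 ratio of -0.50 (-0.60 to -0.40). Csf2rb, the beta chain gene, had 5016 counts in the Ch25h-/- library and 10693 in the C57BL/6 library. It was the most abundant member in both, at 317 CPM (308 to 326) in Ch25h-/- and 625 CPM (613 to 637) in C57BL/6. Its log2 ratio of -0.98 (-1.03 to -0.93) lay just short of the 2-fold rule. Scaling by total counts in place of TMM factors gave -1.007, which passes it, so that 1 member is then called lower.

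The beta chain ratio was lower than the alpha chain ratio by 0.48 on the log2 scale, with an exact conditional interval for the difference (Csf2rb minus Csf2ra) of -0.59 to -0.37. Per kilobase of exon, Csf2rb exceeded Csf2ra 1.42-fold in the Ch25h-/- library (interval 1.34 to 1.51) and 1.99-fold in the C57BL/6 library (1.89 to 2.08). With the longest single transcript as the length, the same ratios were 1.67 and 2.34.

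Csf2rb2 was also lower, with 1723 counts in the Ch25h-/- library and 3184 in the C57BL/6 library. Its level was 109 CPM (104 to 114) in Ch25h-/- and 186 CPM (180 to 193) in C57BL/6, a log2 ratio of -0.77 (-0.86 to -0.69). It took 25.6% of the counts of both beta chain genes in Ch25h-/- (exact binomial interval 24.5 to 26.6%) and 22.9% in C57BL/6 (22.2 to 23.7%). Counted as 1 gene, the beta chains had a log2 ratio of -0.93 (-0.97 to -0.89), still below the interval of Csf2ra however reads were divided between them.

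Most measured conventional dendritic cell markers were lower in the same library as the receptor chains. Of 12 measured markers, 10 passed the 2-fold rule as lower, against 5.77% of all measured genes, and the median was -1.81. Outside these 12, Xcr1 had 6 counts in Ch25h-/- and 0 in C57BL/6, Clec9a 13 and 5, and Cd209a 5 and 11. The chemokine gene Ccl22 had 25.1 CPM in Ch25h-/- and 123 CPM in C57BL/6, and the adhesion gene Esam had 1.26 and 8.01 CPM. On the other side were Irf8, the most abundant, at 2007 and 1428 CPM, and Itgax at 336 and 272 CPM. The 15 markers summed to 2775 CPM in Ch25h-/- and 3368 CPM in C57BL/6. Their part in the Csf2ra, Csf2rb and Csf2rb2 ratios was not tested.

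Csf3r (ENSMUSG00000028859, chromosome 4, 126024550 to 126044440, plus strand) was the receptor gene closest to level. It had 1836 counts in the Ch25h-/- library and 2121 in the C57BL/6 library, or 116 CPM (111 to 121) and 124 CPM (119 to 129), and the CPM intervals overlapped. The log2 ratio was -0.10 (-0.19 to -0.01), and with upper quartile scaling it was -0.085 with an interval of -0.176 to 0.006, which includes 0. Most neutrophil markers were higher in the Ch25h-/- library, in contrast to Csf3r. Of 14 measured, 13 were above 0. An interval above 0 was found for 11 and below 0 for 1, against 31.0% and 27.5% of all measured genes. By the 2-fold rule 5 were higher, against 2.07% of all measured genes. Ly6g, among those 5, reached the 1 CPM mean only through Ch25h-/- (2.59 CPM, and 0.468 CPM in C57BL/6), so it had to differ. The list had a median of 0.80 and a summed level of 2586 CPM in Ch25h-/- and 1596 CPM in C57BL/6. The granule protein gene Ngp had 646 and 322 CPM, and the gelatinase gene Mmp9 had 64.2 and 28.3 CPM. On the other side was Mpo at 51.0 and 67.8 CPM (-0.41), and the intervals of Elane (0.16) and Prtn3 (0.18) included 0. Of 8 Ly6C-high monocyte markers, 7 had an interval above 0 and 1 below, against the same shares, with a median of 0.69. They were led by the chemokine receptor gene Ccr2 at 691 CPM in Ch25h-/- and 304 CPM in C57BL/6. Fn1 was the marker below 0, at 145 and 218 CPM (-0.59). Which cells carried the Csf3r transcripts was not tested.

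**Figure D2:**
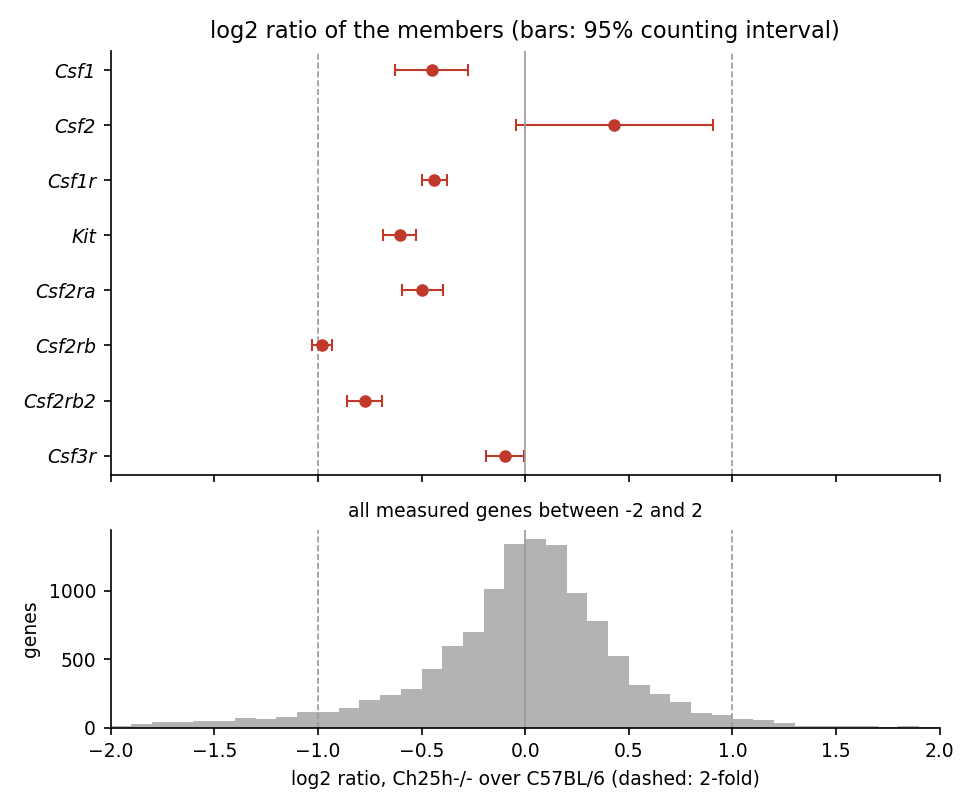
Top, log2 ratio of each member, Ch25h-/- over C57BL/6, with its 95% counting interval; bottom, histogram of the log2 ratios of all measured genes that lie between -2 and 2 (y axis, number of genes). Dashed lines mark 2-fold; Csf2rb sits at the lower one (-0.98), and Csf2 has the widest interval and includes 0.

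Set side by side, 7 of the 8 members had an interval wholly below 0 and 0 of 8 wholly above, against 27.5% and 31.0% of all measured genes. This count without a minimum fold was added after the ratios were seen. The median log2 ratio was -0.47 over the members and 0.01 over all measured genes. Intervals are narrow for abundant genes, so such shares depend on level as well as on the size of a difference. In the order of ratios, Csf2rb was lower than Csf2rb2 by more than counting error (difference -0.21, -0.30 to -0.11), and Csf2rb2 lower than Kit (-0.17, -0.29 to -0.05). Kit and Csf2ra, Csf2ra and Csf1, and Csf1 and Csf1r were neighbours whose differences included 0. Csf3r was apart from Csf1r by more than counting error (Csf1r minus Csf3r -0.34, -0.45 to -0.23), and so was Csf2 from Csf3r (Csf3r minus Csf2 -0.53, -1.01 to -0.04). Together the 8 members summed to 1030 CPM in Ch25h-/- and 1621 CPM in C57BL/6, of which Csf2rb made up 30.7% and 38.6%.

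Levels of different genes were compared per kilobase of exon. In the Ch25h-/- library the order was Csf2rb (43.5 CPM per kb), Csf1r (41.4), Csf3r (32.1), Csf2ra (30.6), Csf2rb2 (22.9), Kit (14.4), Csf2 (6.79) and Csf1 (5.44). The neighbours Csf3r and Csf2ra, and Csf2 and Csf1, did not differ there beyond counting error. In the C57BL/6 library it was Csf2rb (85.9 CPM per kb), Csf1r (56.1), Csf2ra (43.3), Csf2rb2 (39.3), Csf3r (34.3), Kit (21.8), Csf1 (7.44) and Csf2 (5.04), and each neighbour differed from the next by more than counting error. Csf2rb and Csf1r led in both, separated 1.05-fold in Ch25h-/- (1.01 to 1.10) and 1.53-fold in C57BL/6 (1.48 to 1.58). Csf3r stood above Csf2rb2 in Ch25h-/- and below it in C57BL/6. The gap between Csf2rb and Csf1r and the places below Csf1r depend on the length used. By longest transcript, Csf2rb and Csf1r stood at 64.6 and 50.8 CPM per kb in Ch25h-/- and at 128 and 68.9 in C57BL/6. Their near-equality in Ch25h-/- therefore holds for exon lengths only, and the counting interval does not cover the choice of length. With the longest transcript as the length, Csf2ra came above Csf3r, Kit above Csf2rb2 and Csf1 above Csf2 in Ch25h-/-, and Kit came above Csf3r in C57BL/6.

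**Figure D3:**
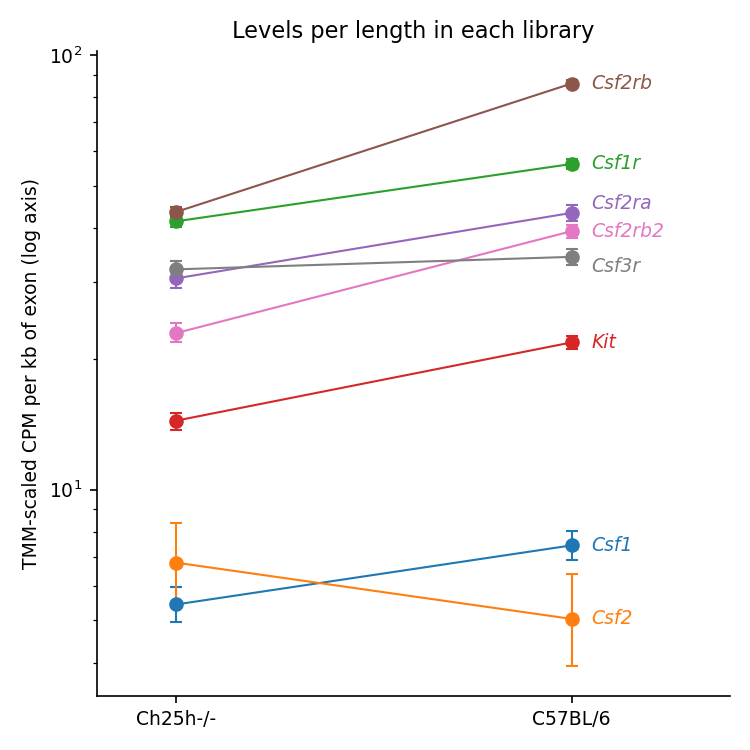
TMM-scaled CPM per kilobase of exon (log axis) of each member in the Ch25h-/- library (left) and the C57BL/6 library (right), with 95% counting intervals, lines joining the same gene. The line of Csf3r is nearly flat and crosses those of Csf2ra and Csf2rb2. Csf2rb comes down next to Csf1r on the left, a closeness that depends on the length used.

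Genes around the members were counted over 5 further lists. Among 7 measured ligands and receptors of the same families, 2 passed the 2-fold rule as lower (Csf3 and Flt3) and 0 as higher. The shares of all measured genes were 5.77% and 2.07%, and Csf3 was measured only through C57BL/6. The list median was -0.20. The IL-5 receptor alpha gene Il5ra, whose product also pairs with the common beta chain, had 3.60 CPM in Ch25h-/- and 6.78 CPM in C57BL/6 (-0.91), and the IL-3 receptor alpha gene Il3ra had 30.9 and 35.4 CPM (-0.19). Flt3l, the FLT3 ligand gene, had 58.2 CPM in Ch25h-/- and 38.1 CPM in C57BL/6 (0.61).

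Signalling genes just below the receptors all differed by less than 2-fold. Of 24 receptor-proximal signalling genes, 0 passed the 2-fold rule in either direction, against 5.77% lower and 2.07% higher among all measured genes. An interval below 0 was found for 14 and above 0 for 5, against 27.5% and 31.0%, and the median was -0.14. The furthest from 0 were Syk (596 CPM in Ch25h-/- and 982 CPM in C57BL/6, -0.72), Stat5a (134 and 213 CPM, -0.66), the adaptor gene Gab2 (56.2 and 87.9 CPM, -0.64) and Jak2, the beta chain's kinase (340 and 475 CPM, -0.49). Stat3 was the most abundant, at 1206 CPM in Ch25h-/- and 1544 CPM in C57BL/6 (-0.36).

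Targets of STAT5 went both ways. The median over 15 genes of feedback, survival and cycling was 0.03. By the 2-fold rule 1 was lower and 0 were higher, against 5.77% and 2.07% of all measured genes. That gene was Socs2, a STAT5-induced inhibitor of cytokine signalling, at 29.9 CPM in Ch25h-/- and 87.6 CPM in C57BL/6 (-1.55, interval -1.70 to -1.40). Cish, an inhibitor induced by the same route, was on the other side at 79.6 and 58.5 CPM (0.44). The kinase gene Pim2 (307 CPM in Ch25h-/- and 186 CPM in C57BL/6, 0.72), Ccnd3 (473 and 292 CPM, 0.70) and Bcl2 (294 and 191 CPM, 0.62) were higher, and Pim1, the most abundant, was at 1299 and 1386 CPM (-0.09).

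Of 11 measured myeloid genes known to respond to GM-CSF, 6 passed the 2-fold rule as lower and 1 as higher. The shares of all measured genes were 5.77% and 2.07%, and the list median was -1.02. Ccl24 (0.252 CPM in Ch25h-/- and 1.93 CPM in C57BL/6) and Ccl17 (0.568 and 1.46 CPM) reached the 1 CPM mean only through C57BL/6, so both had to differ and the count and median that include them are a description. With a filter at 5 CPM the median was -1.38. That filter removes both, but also Inhba (-1.02), Dcstamp (-0.86), Pparg (-0.40) and Fabp4 (-0.08). The change of the median is therefore not the effect of Ccl24 and Ccl17 alone. The chemokine genes Ccl24 (4 counts in Ch25h-/- and 33 in C57BL/6, -2.93) and Ccl22 (-2.30), the factor gene Irf4 (37.2 and 132 CPM, -1.83) and the IL-1 receptor antagonist gene Il1rn (144 and 373 CPM, -1.38) were furthest from 0. Bhlhe40, the most abundant, was at 897 and 1027 CPM (-0.20), and Spp1, which encodes osteopontin, was the gene on the other side at 155 and 63.2 CPM (1.30). Ccl22 and Irf4 are also dendritic cell markers, so the 2 lists are not separate evidence.

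Of 12 measured myeloid transcription factor genes, 2 passed the 2-fold rule as lower and 1 as higher. The shares of all measured genes were 5.77% and 2.07%, and the list median was -0.37. Spi1, which encodes PU.1, had 94.0 CPM in Ch25h-/- and 121 CPM in C57BL/6 (-0.37), and it was the list gene nearest in level to Csf2ra. Klf4, a factor of Ly6C-low and other monocytes, had 29.0 and 94.7 CPM (-1.71), Ets2 had 66.5 and 143 CPM (-1.10) and Cebpa had 6.31 and 10.6 CPM (-0.74). Cebpe, a factor of granulocyte precursors, had 57 counts in Ch25h-/- and 29 in C57BL/6 (1.09), and Irf8 was the most abundant.

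**Figure D4:**
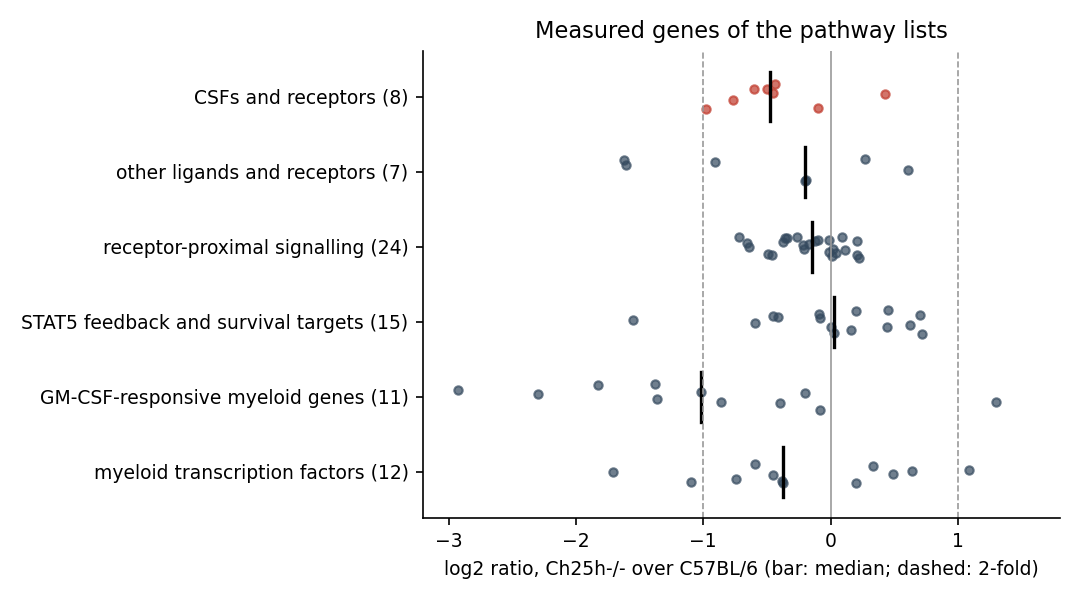
Log2 ratio, Ch25h-/- over C57BL/6, of each measured gene (points) in the members (red) and in 5 pathway lists (blue), with medians as black bars and the number of measured genes in parentheses. The GM-CSF-responsive list has the lowest median (-1.02), and the signalling list lies wholly within 2-fold.

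Lymphocyte markers give the setting for Csf2. Of 15 NK cell and cytotoxic lymphocyte markers, 4 passed the 2-fold rule as higher, against 2.07% of all measured genes. An interval above 0 was found for 15, against 31.0%. The list had a median of 0.77 and a summed level of 23193 CPM in Ch25h-/- and 14530 CPM in C57BL/6. Gzmb alone had 7429 and 4356 CPM, and the NK receptor gene Ncr1 had 429 and 156 CPM. Of 11 T cell markers, 5 were below 0 and the median was 0.21, with Cd28 at 81.7 CPM in Ch25h-/- and 29.9 CPM in C57BL/6 and Il7r at 67.2 and 137 CPM. The 9 innate lymphoid markers were split, with 5 intervals below 0 and 4 above, against 27.5% and 31.0% of all measured genes. Il22, among those 5, reached the 1 CPM mean only through C57BL/6 (1.99 CPM, and 0.947 CPM in Ch25h-/-), so it had to differ. The median of these 9 markers, -0.67, is therefore a description, and it became 0.26 with a filter at 5 CPM. The innate lymphoid markers ran from Il23r (-1.37) to Il1rl1 (0.52), with the most abundant gene, Id2, at 0.16. The part of these cells in the Csf2 counts was not tested. Of 8 B cell markers, 1 passed the 2-fold rule as lower and 7 had an interval below 0, with a median of -0.68. Of 7 plasma cell markers, 5 passed it and 7 had an interval below 0, with a median of -1.28. Over all measured genes these shares were 5.77% and 27.5%. Eosinophil markers had a median of -0.91 over 5 genes. Epx (0.442 CPM in Ch25h-/- and 6.08 CPM in C57BL/6) and Prg2 (0.757 and 9.64 CPM) reached the 1 CPM mean only through C57BL/6. Both had to differ, so that median is a description. Il5ra was at -0.91, Siglecf at -0.08 and Ccr3 at 0.18. Cell cycle genes had a median of 0.97 over 10. Medians were -0.97 for 6 marginal zone and metallophilic macrophage markers, with Timd4 at 83 counts in Ch25h-/- and 359 in C57BL/6, -0.32 for 6 plasmacytoid dendritic cell markers and 0.15 for 7 endothelial and stromal markers. In the endothelial and stromal list, Stab2 (0.821 CPM in Ch25h-/- and 2.22 CPM in C57BL/6) reached the 1 CPM mean only through C57BL/6. Acta2 (1.20 and 0.818 CPM) did so only through Ch25h-/-, so that median is a description. The marginal zone marker Cd209b and the plasmacytoid marker Siglech had 0 counts in both libraries.

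**Figure D5:**
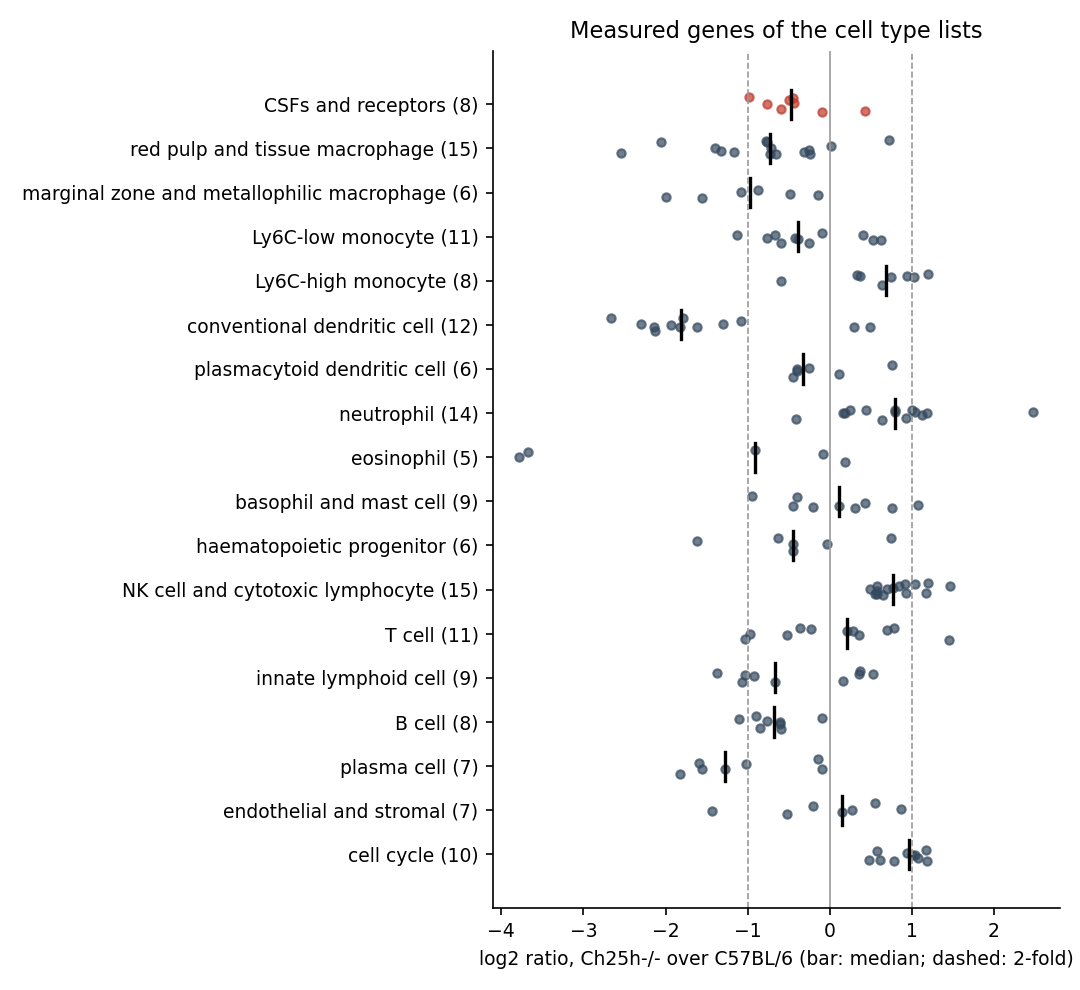
Log2 ratio, Ch25h-/- over C57BL/6, of each measured gene (points) in the members (red) and in 17 cell type lists (blue), with medians as black bars and the number of measured genes in parentheses. The members' median is -0.47, and neutrophil, Ly6C-high monocyte, NK cell and cell cycle lists lie mostly above 0.

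As a description over 2 libraries, the gene of these lists nearest to each member in log2 CPM was also found, for all members because none passed the 2-fold rule for which the search had been set. Csf2rb2 was nearest to Cd79a (110 CPM in Ch25h-/- and 185 CPM in C57BL/6, a distance of 0.0138 on the log2 scale), Kit to Stat5a (0.147), Csf1r to the adaptor gene Grb2 (0.124), Csf2ra to Spi1 (0.101) and Csf3r to the adaptor gene Shc1 (0.179). Csf1 was nearest to Il3ra (0.185), Csf2 to the mast cell and basophil gene Ms4a2 (0.238) and Csf2rb to Socs3 (0.277).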

How the data were processed

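Per the labels' protocols, TRIzol was used for RNA and a KAPA RNA HyperPrep kit for libraries. GSNAP and featureCounts (Subread 1.5.2) are named in the submitters' processing notes, with the build GRCm38. Values in the deposited table are whole counts of reads, taken as given. Strand setting and multiple matches are not given in the sources used here.

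Counts of the whole table were scaled to CPM with TMM factors (edgeR 4.0.16, R 4.3.3). Ratios were computed without a prior count. A 0 count entered a ratio at a floor of 3 counts. Intervals are exact: Clopper-Pearson for ratios, Poisson for CPM and conditional for differences between members (scipy 1.17.1, numpy 2.4.6, pandas 2.3.3, Python 3.11.15). They treat reads as independent molecules, which libraries without molecular identifiers do not guarantee. Positions and exon lengths come from GENCODE M21 (GRCm38), which holds 30126 of the table's IDs. The coding sequences were aligned with Biopython 1.88, and figures were drawn with matplotlib 3.10.9. Calculations were tested on simulated counts.

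The members, the 22 gene lists and the rule for named genes were chosen with earlier results of these data known. That rule takes all members and, of each list, the most abundant gene and those furthest from 0 (4 for pathway lists, 2 for cell type lists); of the cell type lists the text names only some of them. Other list genes named were chosen after their values were seen. The list genes Adgre1 and Jchain were found by ID, and Cebpd was not analysed here. Alternatives tried were total counts, size factors of DESeq2 1.42.0, upper quartile factors, a prior count of 2, other filters, a stricter interval, summed beta chains and transcript lengths.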

Additional observations from a re-analysis of the deposited data

How the results depend on the processing

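No member ratio changed sign under the 4 scaling and prior alternatives, and all stayed within their counting intervals. These scalings moved every log2 ratio by at most 0.026 in size. The count of members called lower was 0 and became 1, Csf2rb, with total counts; it stayed at 0 under the other 6 alternatives. The count of members with an interval below 0, added after the data were seen, was 7 and became 6 with upper quartile factors, where Csf3r includes 0. Summing the beta chains gave -0.931 for both, outside the interval of either gene alone, since the sum is weighted to Csf2rb. Over all genes, 691 were called lower and 248 higher. A filter at 5 CPM left 347 and 120, and an interval wholly beyond 2-fold left 318 and 67, since both only remove calls. With no filter beyond 1 count, 1031 were called lower and 435 higher. Of 131 recomputed list medians, 129 moved by less than the median half-width of their genes' intervals. The innate lymphoid median was -0.67 and became 0.26 with the 5 CPM filter, which drops its scarce members, and the conventional dendritic cell median was -1.81 and became -1.62 with no filter, which adds genes. Longest-transcript lengths moved 10 of 16 levels per length. No paired analysis was possible because each genotype has 1 library. Leaving out a replicate was not possible for the same reason. Depth limits Csf2 most.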
